A study of Canis lupus familiaris with 13 samples.

Results

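Transcripts of the HOX genes were compared between canine soft tissue sarcomas, malignant connective tissue tumours, that did or did not metastasise. The set held 21 HOX genes read by 30 probe sets, out of 43035 probe sets and 15115 named genes on an Affymetrix canine array. A probe set, a group of short probes against 1 transcript, was included where its only gene symbol in the platform annotation was HOXA, HOXB, HOXC or HOXD followed by a paralogue number from 1 to 13. The metastatic group held 5 tumours (MET1 to MET5), and the non-metastatic group held 8 tumours (NM1 to NM8) that had not metastasised for at least 1 year. Every tumour was untreated, and total RNA of the primary tumour was labelled with biotin. The labels name no breed, age, tumour subtype or site on the body, so none of these entered a comparison. Whether each tumour came from a different dog is not stated either, so p-values measure only the spread between these samples, which may be technical.

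HOX genes encode homeodomain transcription factors and lie in clusters named A to D. Within a cluster, genes of low paralogue number act towards the head of the embryo, and genes of high number act towards the tail and the ends of the limbs. The proteins bind DNA together with TALE homeodomain partners of the PBX and MEIS families. Retinoic acid induces many of the genes in embryos, and Trithorax and Polycomb complexes keep them on or off later. Human fibroblasts from different body sites keep different HOX patterns in adult life.

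HOXA was covered by 7 genes, HOXB by 8, HOXC by 5 and HOXD by 1, and 7 genes had more than 1 probe set. The RefSeq assembly UU_Cfam_GSD_1.0 lists 38 HOX genes, and the 17 others were not analysed here. 1 further probe set carries 2 HOXC symbols and was assigned to neither gene. The gene identifiers of 28 of the 30 probe sets were found in RefSeq, and the other 2, 1 of HOXC8 and the brighter 1 of HOXD10, keep the name of the platform annotation. Each gene is described by its probe set of highest mean, with the others given where they differ. Probe sets differ in how strongly they bind, so the size of a level was compared between tumours and not between genes. All genes were also set against 1 common range of signal without target, given below. Which genes exceed that range depends on the binding of their probe sets too.

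Sample medians lay between 6.71 and 6.94 on the log2 scale, where a difference of 1 is a 2-fold change. Controls for labelling, bacterial poly-A transcripts spiked into the RNA, separated the arrays. All 5 metastatic tumours and NM5 to NM8 had signal at both ends of these controls (spike-in group A). NM1, NM3 and NM4 lacked it, with 4.48 to 4.95 at the 3′ end (group B). Their sample medians were also the lowest, 6.74, 6.71 and 6.71, against 6.87 to 6.94 in the other tumours. In NM2 (group C) the 3′ signal was higher than the 5′ signal by 3.54, against at most 0.96 in any other tumour. Only group A held both outcomes, so the main differences are also given within its 9 tumours. In group B the spike-in probe sets, without their target, gave values from 2.63 to 7.16, so a value up to 7.16 is not told apart from that range. The mean level of 8 fibroblast markers, COL1A1 and DCN among them, was 11.63 to 12.34 in metastatic and 11.29 to 12.37 in non-metastatic tumours. DCN, decorin of the collagen matrix, was the 1 of these 8 that changed, lower by 1.29 ± 0.20 (SE, limma adjusted p = 0.00429).

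No HOX gene differed between the groups past the threshold. Of the 30 HOX probe sets, 0 rose and 0 fell in metastatic tumours (limma, adjusted p under 0.05 over 42924 probe sets), where 4.90% of all probe sets passed. Within group A the count was also 0, against 2.78% of all probe sets, and with the spike-in group as a block it was 0 against 3.87%. At an unadjusted p under 0.05 there were 5 HOX probe sets (HOXA3, HOXA5, HOXA7, HOXB6 and HOXB7), all higher, which is 16.7%, against 12.0% of all probe sets higher and 23.7% in either direction. Within group A there were 7, all higher (HOXA2, HOXA3, HOXA7, 1 of HOXA9, HOXB7 and both of HOXD10), which is 23.3%, against 9.12% higher and 20.2% in either direction. The exact permutation test over 1287 splits gave 6 at that level, all higher, of 30, against 11.9% of all probe sets higher and 22.9% in either direction. After adjustment it called 0 HOX probe sets, and 0.00% of all probe sets. The smallest adjusted p was 0.102 for HOXB7 in limma. The groups overlapped for all 30 HOX probe sets, while 2.63% of all probe sets had groups that did not overlap.

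Leaving out NM2 or MET4 changed this count. Without NM2, 4 HOX probe sets passed in limma, those of HOXA3, HOXA7, HOXB7 and HOXD10, all higher in metastatic tumours. That was 13.3% of the HOX probe sets, against 4.03% of all probe sets higher and 10.4% in either direction in the same fit. Their differences without NM2 were 0.47 for HOXA3, 0.45 for HOXA7, 1.23 for HOXB7 and 0.86 for HOXD10, with adjusted p from 0.0257 to 0.0456. This fit keeps group B, whose means of the 4 were 6.19, 7.04, 5.97 and 5.47. In NM5 to NM8 the means were higher, at 6.56, 7.375, 6.49 and 6.135. Within group A, which has neither NM2 nor group B, 0 passed. HOXA3 was above 7.16 in 0 tumours and HOXD10 in 2. The second HOXB7 probe set differed by 0.05 over all tumours. Without MET4, HOXB6 alone passed, at 0.72 (adjusted p = 0.0287), where 1.12% of all probe sets were higher and 3.91% passed in either direction. Leaving out any other single tumour gave 0 HOX probe sets.

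**Figure D1:**
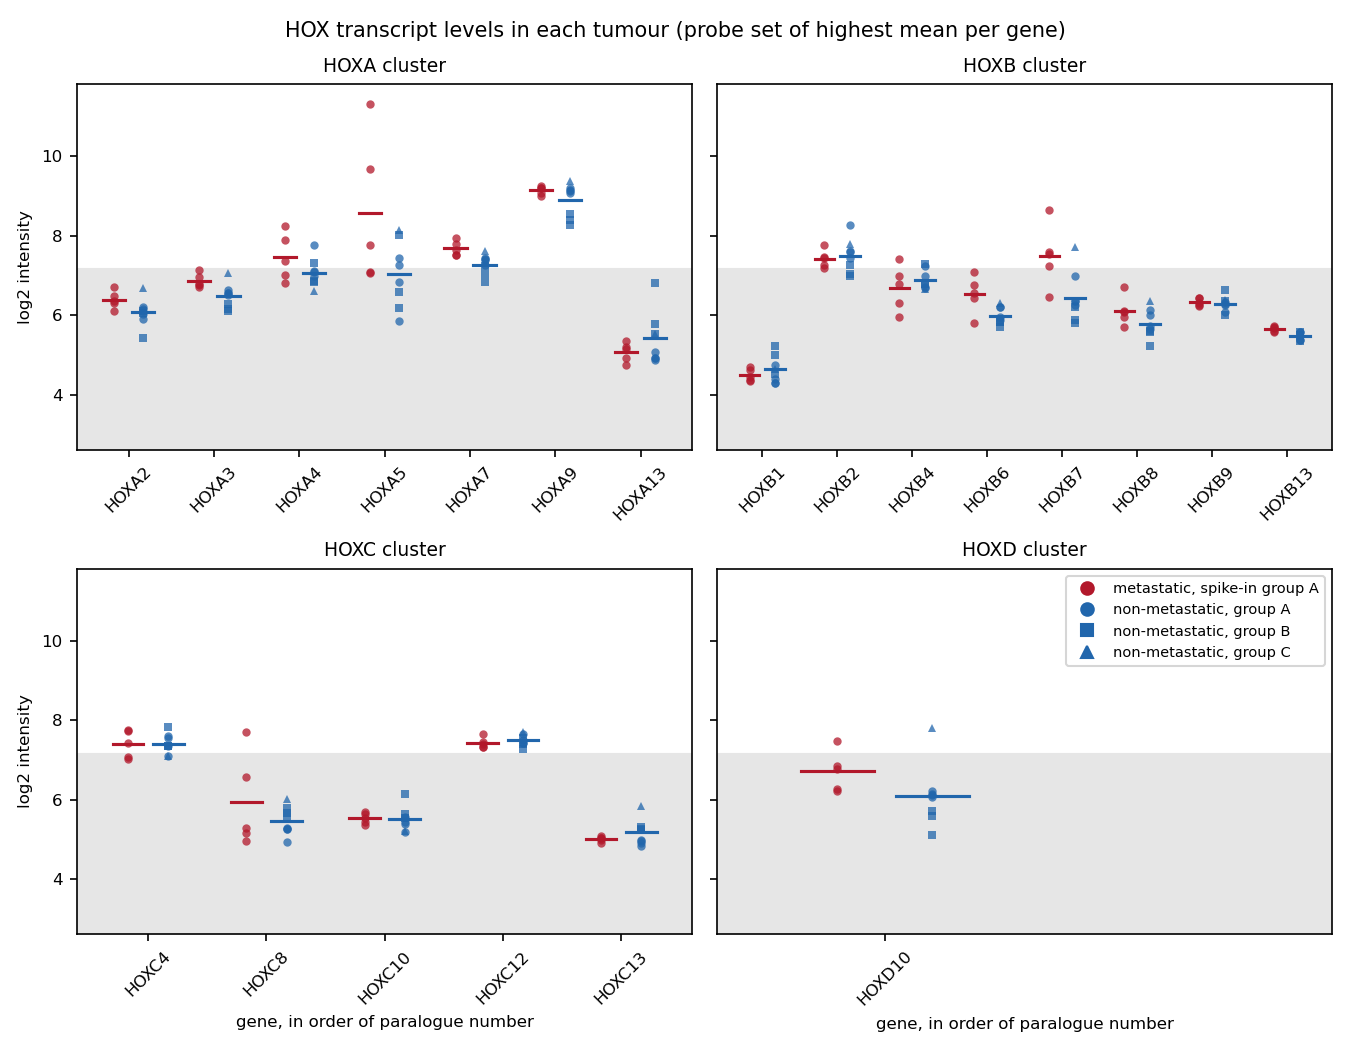
Log2 intensity of each HOX gene (probe set of highest mean) in every tumour, by cluster and in order of paralogue number, with metastatic tumours left and non-metastatic tumours right of each tick. Bars are group means, the grey band is the range of 2.63 to 7.16 that probe sets gave without target, and marker shapes show the spike-in group. Only HOXA9 and HOXC12 lie above the band in all 13 tumours, and HOXA5 spreads most widely.

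Most HOX signals were low. Of the 30 probe sets, 3 were above 7.16 in all 13 tumours (2 of HOXA9 and 1 of HOXC12), 11 in some and 16 in none. Over the whole array 28.2% of probe sets were above it in all tumours and 40.8% in none. 10 of the 21 genes had no probe set above it in any tumour: HOXA2, HOXA3, HOXA13, HOXB1, HOXB6, HOXB8, HOXB9, HOXB13, HOXC10 and HOXC13. For 13 genes both group means were not above 7.16, so the sizes of their differences are not exact.

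In the HOXA cluster the gene of largest difference was HOXA5, which patterns the neck, upper thorax and airways in mice. It read 7.09 in MET1, 9.67 in MET2, 7.76 in MET3, 7.06 in MET4 and 11.31 in MET5. The 8 non-metastatic tumours ran from 5.85 in NM7 to 8.15 in NM2, with a median of 7.06. MET2 and MET5 lay above every non-metastatic tumour, and the other 3 metastatic tumours lay inside the non-metastatic range. Group means were 8.58 ± 1.86 for metastatic tumours (SD, n = 5) and 7.04 ± 0.83 for non-metastatic tumours (n = 8). Their difference of 1.53 ± 0.66 (SE, 95% interval 0.12 to 2.94) did not pass (limma adjusted p = 0.180), and without MET5 it was 0.85. Within group A it was 1.73 (adjusted p = 0.303). The range of HOXA5 over the 13 tumours, 5.46, exceeded that of 99.2% of all probe sets.

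HOXA9, a regulator of blood progenitors and of limb patterning, was above the no-target range in every tumour. It read 9.20, 9.08, 9.26, 9.21 and 9.0 in MET1 to MET5, and 8.26 to 9.37 with a median of 9.10 in non-metastatic tumours. The low non-metastatic values at this probe set were those of group B, 8.26 in NM1, 8.55 in NM3 and 8.39 in NM4. NM5 to NM8 lay between 9.07 and 9.21. Group B was not lower at the other HOXA9 probe sets, with means of 7.98 and 7.23 against 7.84 and 7.155 in NM5 to NM8. The difference was 0.26 ± 0.19 (SE) over all tumours and 0.01 within group A, and neither passed. A second HOXA9 probe set had means of 8.11 ± 0.15 for metastatic tumours (SD, n = 5) and 7.88 ± 0.14 for non-metastatic tumours (n = 8), with differences of 0.23 over all tumours and 0.26 within group A (limma adjusted p = 0.220 and 0.189).

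The other HOXA genes differed by less than HOXA5. HOXA7, a gene of the trunk, had means of 7.68 ± 0.18 for metastatic tumours (SD, n = 5) and 7.28 ± 0.24 for non-metastatic tumours (n = 8), a difference of 0.41 ± 0.14 (SE, limma adjusted p = 0.107). HOXA3, needed for the thymus and parathyroid in mice, differed by 0.39, HOXA4 by 0.40 and HOXA2, which patterns the second pharyngeal arch, by 0.32. HOXA13, which acts at the tips of the limbs and in the hindgut, differed by -0.35 over all tumours and by 0.13 within group A. Its values were 5.78, 5.52 and 6.81 in NM1, NM3 and NM4 of group B, against 4.76 to 5.36 in metastatic tumours. All 7 HOXA genes had positive differences within group A and 6 did over all tumours, where 55.6% and 55.1% of all probe sets were positive. The median difference of the cluster was 0.39 over all tumours and 0.31 within group A, beside 0.05 and 0.03 for all probe sets.

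In the HOXB cluster HOXB7, a trunk gene that has been studied in human cancers, had the largest difference. It read 7.55, 7.60, 7.24, 6.46 and 8.64 in MET1 to MET5. The non-metastatic tumours ran from 5.81 in NM1 to 7.73 in NM2, with a median of 6.30. Metastatic tumours lay above that median in all 5 cases, and MET5 alone lay above NM2. The difference of 1.05 ± 0.36 (SE, 95% interval 0.29 to 1.81) did not pass (limma adjusted p = 0.102), and within group A it was 1.01 (adjusted p = 0.182). The second HOXB7 probe set differed by 0.05 ± 0.18 (SE, 95% interval -0.33 to 0.43), and its values of 6.63 to 7.28 in metastatic tumours overlapped 6.32 to 7.42 in non-metastatic tumours. The pair of probe sets thus gave different sizes for the same gene.

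HOXB6 also had probe sets that disagreed, at 0.54 ± 0.19 and -0.21 ± 0.20 (SE, limma adjusted p = 0.112 and 0.547). Within group A both were positive, at 0.47 and 0.12. For its brighter probe set, MET1, MET2, MET3 and MET5 read 6.56, 7.10, 6.43 and 6.76, above the non-metastatic range of 5.70 to 6.30, and MET4 read 5.80 inside it. None of these values exceeded 7.16. HOXB8, which acts in myeloid progenitors and the trunk, differed by 0.33 and HOXB13, a gene of the prostate and tail, by 0.18. HOXB13 was nearly flat, at 5.67 ± 0.07 for metastatic tumours (SD, n = 5) and 5.48 ± 0.10 for non-metastatic tumours (n = 8), inside the no-target range. Its exact permutation p was 0.00699, and 0.0993 after adjustment. HOXB1, a hindbrain gene, and HOXB2 and HOXB4 differed by -0.15, -0.08 and -0.20, and HOXB9 by 0.04. HOXB2 was above 7.16 in 5 of 5 metastatic and 6 of 8 non-metastatic tumours, with its highest value of 8.28 in NM7. The median difference of HOXB was 0.11 over all tumours and 0.13 within group A.

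In the HOXC cluster HOXC8, a gene of the thorax and of forelimb motor neurons, varied most between tumours. Its brighter probe set read 5.17, 6.57, 5.29, 4.96 and 7.71 in MET1 to MET5, and 4.93 to 6.01 with a median of 5.45 in non-metastatic tumours. MET2 and MET5 were above every non-metastatic tumour, and MET1, MET3 and MET4 were within the non-metastatic range. Only the MET5 value was above 7.16, so that of MET2 lay inside the no-target range. The difference of 0.46 ± 0.39 (SE, 95% interval -0.38 to 1.30, limma adjusted p = 0.476) became 0.02 without MET5. Within group A it was 0.75 (adjusted p = 0.458). The second HOXC8 probe set, whose identifier RefSeq does not list, was highest in MET2 at 5.98. It read 5.60 in MET5, within its non-metastatic range of 4.33 to 5.75, and was above 7.16 in no tumour. HOXC4 had means of 7.40 ± 0.34 for metastatic tumours (SD, n = 5) and 7.41 ± 0.25 for non-metastatic tumours (n = 8). HOXC10, of the lumbar level, differed by 0.02, HOXC12 by -0.06 and HOXC13, which acts in hair and nails, by -0.16. The brightest HOXC12 probe set stayed within 7.28 to 7.70 in all 13 tumours, and the other 2 stayed at or under 6.83. The median difference of HOXC was -0.01 over all tumours and 0.08 within group A.

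HOXD was represented by HOXD10, a gene of the lower trunk and hindlimb. Its brighter probe set read 6.26, 7.48, 6.85, 6.22 and 6.77 in MET1 to MET5, and 5.12 to 7.80 with a median of 6.09 in non-metastatic tumours. The highest value, 7.80, belonged to NM2, and the next non-metastatic value was 6.21. The difference was 0.62 ± 0.36 (SE, 95% interval -0.15 to 1.39, limma adjusted p = 0.299) and 0.58 within group A (adjusted p = 0.219). The second probe set differed by 0.28 over all tumours and 0.60 within group A (adjusted p = 0.558 and 0.225).

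**Figure D2:**
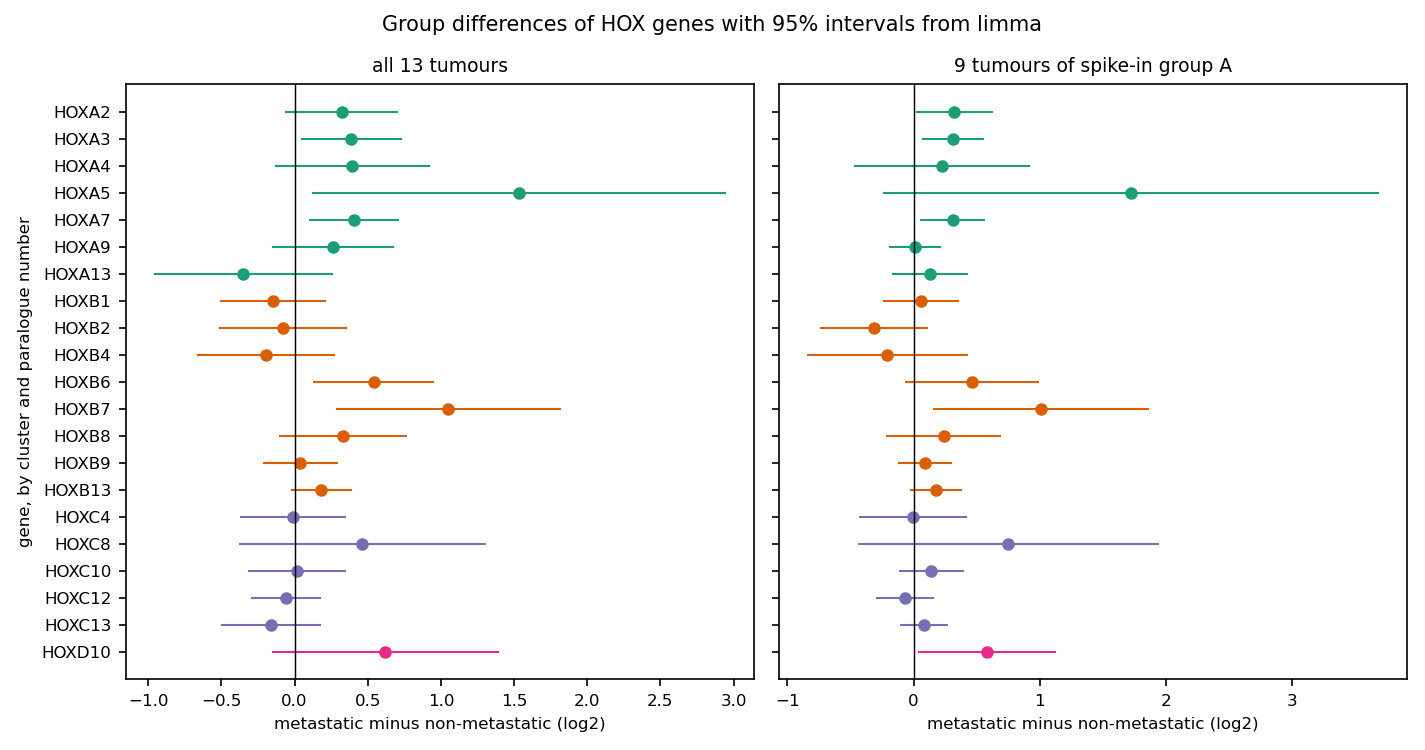
Log2 difference of each HOX gene between metastatic and non-metastatic tumours, positive where higher in metastatic (horizontal axis), with 95% intervals from limma that are not adjusted for the number of probe sets, over all 13 tumours (left) and within spike-in group A (right). Colours mark the clusters. HOXA5 has the largest difference and the widest interval, 0.12 to 2.94 over all tumours.

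Along paralogue number, the genes numbered 4 to 8 had a larger median difference than those on either side, which was not tested. The median difference was 0.12 over 4 genes numbered 1 to 3, 0.41 over 9 genes numbered 4 to 8, and 0.03 over 8 genes numbered 9 to 13. Within group A these medians were 0.18, 0.31 and 0.11. The 6 genes numbered 5 to 8 (HOXA5, HOXA7, HOXB6, HOXB7, HOXB8 and HOXC8) all had positive differences at their probe sets of highest mean. These ran from 0.33 to 1.53 over all tumours and from 0.24 to 1.73 within group A. The range of paralogue numbers was picked after the values were seen. Genes are not replicates, and none of the 6 passed. The other probe sets of HOXB6, HOXB7 and HOXC8 differed by -0.21, 0.05 and 0.43 over all tumours. Without MET5 the HOXC8 difference was 0.02 at its brighter probe set. HOXB6 and HOXB8 were above 7.16 in no tumour. Over the 21 genes, 14 differences were positive and 7 negative over all tumours, and 17 and 4 within group A. After quantile normalization of the arrays the split was 12 and 9, with HOXB9 and HOXC10 changing sign.

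Seen by tumour, the mean of the 6 genes numbered 5 to 8, each centred on its median over the 13 tumours, was 0.23 in MET1, 0.97 in MET2, 0.27 in MET3, -0.10 in MET4 and 1.74 in MET5. In non-metastatic tumours it ran from -0.44 in NM1 to 0.59 in NM2. MET5 held the highest value of 7 of the 21 genes (HOXA2, HOXA4, HOXA5, HOXA7, HOXB7, HOXB8 and HOXC8), where 8.06% of all probe sets were highest in MET5. NM2 held the highest value of 4 of the 21 genes, where 21.6% of all probe sets were highest in NM2. Over the 30 HOX probe sets the counts were 9 in MET5 and 8 in NM2. For genes numbered 9 to 13 the centred mean varied less, between -0.01 and 0.15 in metastatic and between -0.12 and 0.37 in non-metastatic tumours, the upper end again in NM2. Of these genes HOXA13, HOXB9, HOXB13, HOXC10 and HOXC13 were above the no-target range in no tumour, and HOXD10 only in MET2 and NM2. Their small spread is thus no measure of steady expression.

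**Figure D3:**
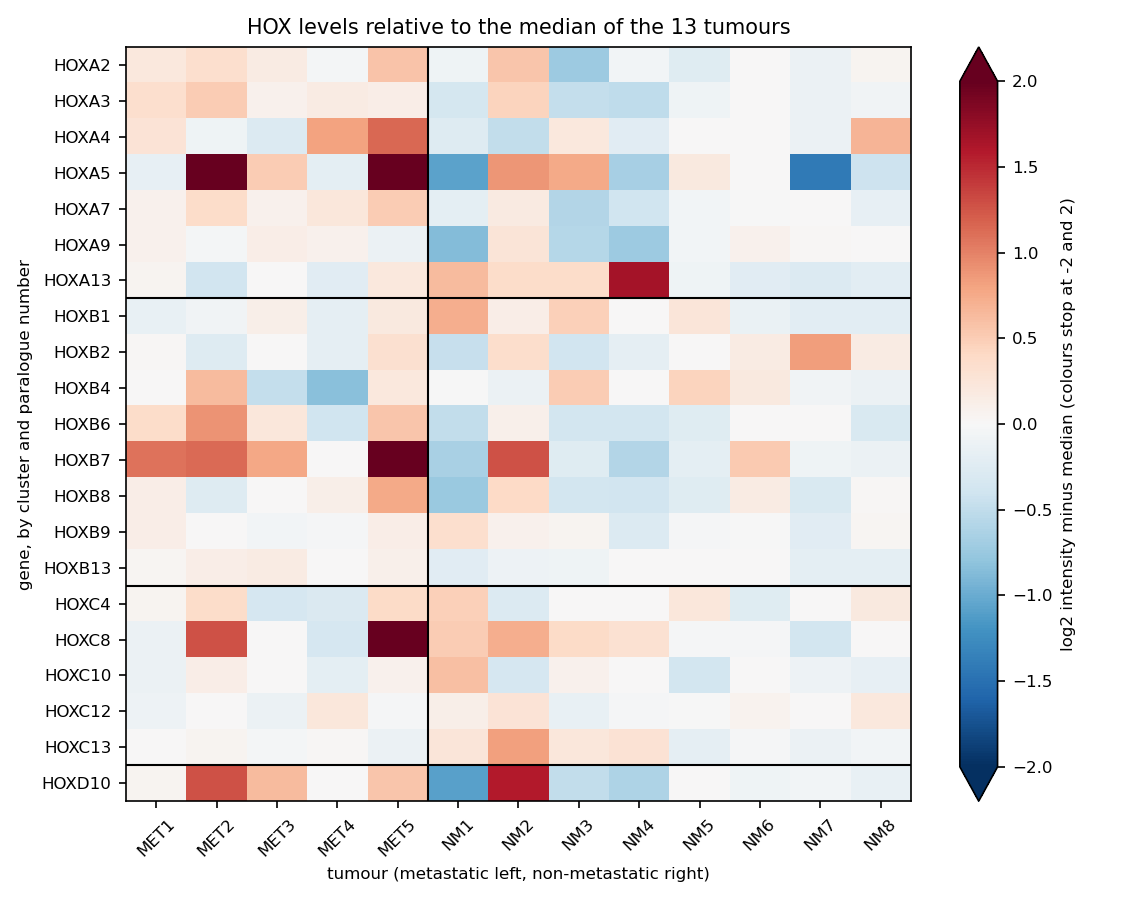
Each HOX gene's log2 intensity minus its median over the 13 tumours, with metastatic tumours left of the vertical line and non-metastatic tumours right of it, and genes ordered by cluster and paralogue number. Colours stop at -2 and 2. MET5 is high at HOXA5, HOXB7 and HOXC8, MET2 at HOXA5 and HOXC8, and the paralogues numbered 9 to 13 are close to their medians in most tumours.

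The highest paralogue number above the no-target range, among the genes analysed, was read in each tumour. Genes that were not analysed limit it, among them HOXA10, HOXA11, HOXB3, HOXB5, HOXC9, HOXC11 and every HOXD gene but HOXD10. In HOXA it was 9 in all 5 metastatic and all 8 non-metastatic tumours. HOXA13 stayed at or under 6.81, and no gene between HOXA9 and HOXA13 was analysed, so 9 is no limit of HOXA expression. In HOXB it was 7 in 4 metastatic tumours and 2 in MET4. Among non-metastatic tumours it was 7 in 1, 4 in 2 and 2 in 4, and NM1 had none. In HOXC it was 12 in all 13 tumours and rested on the single flat HOXC12 probe set. In HOXD only MET2 and NM2 had HOXD10 above the range. MET2 and NM2 also had the largest 3′ minus 5′ differences of the ACTB control probe sets, 2.87 and 3.14, against at most 2.24 in the other tumours. Whether this bears on HOXD10 was not tested.

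Of 8 marker lists, those of skeletal muscle and fat are given first beside the values of MET2 and MET5. The mean of 10 muscle markers was 8.62 in MET5 and 7.20 to 7.68 in the other metastatic tumours, against 6.71 to 7.59 in non-metastatic tumours. 5 of the 10 were highest in MET5, among them the fast myosin MYH2 (9.28, at most 6.44 elsewhere) and desmin, DES (10.11, at most 8.89 elsewhere). In MET2, where HOXA5 read 9.67, the muscle mean was 7.20, and 1 of the 10 was highest there, MYH1, at 6.79 and inside the no-target range. The mean of 5 adipocyte markers was 8.42 in MET5 and 5.76 to 7.91 in the other metastatic tumours, against 5.57 to 7.74 in non-metastatic tumours. 1 of these 5 was highest in MET2, FABP4, a fatty acid carrier of fat and capillaries, at 11.87, with 11.69 in MET5 and 10.78 in NM2. The others in MET2, ADIPOQ at 7.80, PLIN1 at 6.82, LEP at 4.51 and LPL at 6.68, lay inside their non-metastatic ranges. The macrophage mean was 7.58 in MET2 and 8.22 in MET5, the lowest of the metastatic tumours, against 8.12 to 9.95 in non-metastatic tumours. The endothelial and epithelial means were highest in MET5 among metastatic tumours, at 9.11 and 5.125. The T cell and Schwann cell means were lowest there, at 6.93 and 7.24. All of these MET5 means lay inside their non-metastatic ranges, while the MET2 macrophage mean lay below its range. No marker value was 0, and 0 of 10 muscle and 0 of 5 adipocyte markers passed, against 4.90% of all probe sets. In bulk RNA fewer cells of a type and less RNA per cell cannot be told apart, and the part of these tissues in the HOX values was not tested.

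No gene of the TALE cofactor list passed at the probe set that stands for it. Of 9 measured genes 0 rose and 0 fell over all tumours or within group A, against 4.90% and 2.78% of all probe sets. PBX3, a partner of HOX proteins on DNA, had means of 7.42 ± 0.38 for metastatic tumours (SD, n = 5) and 8.33 ± 0.56 for non-metastatic tumours (n = 8). Its difference of -0.90 ± 0.26 (SE, limma adjusted p = 0.0631) was -0.85 within group A (adjusted p = 0.0545). It passed without NM2, at -1.05 (adjusted p = 0.0119), and with dim probe sets left out (adjusted p = 0.0474). Its other 2 probe sets fell within group A, with differences of -1.07 and -1.20 (adjusted p = 0.0301 and 0.0208), and did not pass over all tumours (-0.98 and -0.96). TGIF1, a TALE repressor, differed by 0.78, PBX2 by -0.61 and MEIS3 by -0.33 (adjusted p = 0.0746, 0.0919 and 0.127). After quantile normalization TGIF1 passed, at 0.84 (adjusted p = 0.0388).

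MEIS1 and MEIS2, partners of HOX proteins, were chosen here after their values were seen. MEIS1, like HOXA5, was highest in MET5 and MET2, while MEIS2 divided the metastatic tumours differently. MEIS1 read 6.56, 8.28, 5.97, 6.41 and 9.11 in MET1 to MET5, and 5.73 to 6.60 in non-metastatic tumours. MET2 and MET5 thus lay above 7.16 and the other 11 tumours did not. The difference of 1.00 did not pass (limma adjusted p = 0.188). MEIS2 read 9.78, 10.38, 6.79, 6.35 and 10.52 in MET1 to MET5, and 7.10 to 9.73 in non-metastatic tumours. MET1, MET2 and MET5 were above every non-metastatic tumour and MET3 and MET4 were below every one, and the group difference was 0.27 (adjusted p = 0.835). The second MEIS2 probe set gave the same split, with 8.92, 9.28 and 9.26 in MET1, MET2 and MET5 and 7.22 and 7.11 in MET3 and MET4, against 7.32 to 8.49 in non-metastatic tumours.

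**Figure D4:**
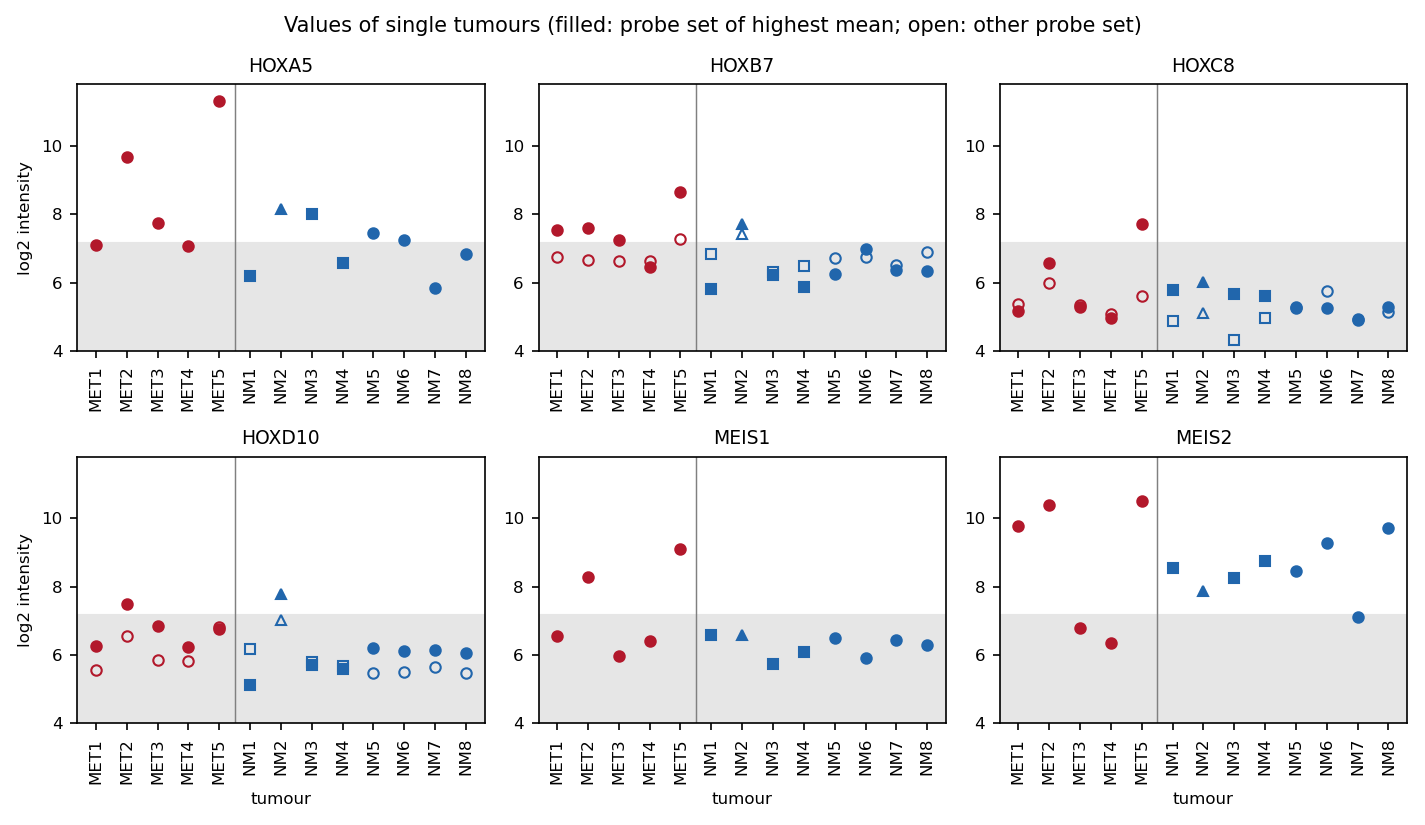
Log2 intensity in each tumour for the HOX gene of largest difference in each cluster and for MEIS1 and MEIS2, with metastatic tumours in red left of the line and non-metastatic tumours in blue right of it. Circles, squares and triangles are spike-in groups A, B and C, open symbols are the second probe set of the HOX genes, and the grey band ends at 7.16. MET5 and MET2 stand highest for HOXA5, HOXC8 and MEIS1, and NM2 for HOXD10.

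Among chromatin regulators of HOX clusters, 2 of 20 measured genes rose and 1 fell, against 1.56% higher and 3.34% lower of all probe sets. EZH2, the histone methyltransferase of Polycomb complex 2, rose by 1.65 ± 0.34 (SE), with means of 8.99 ± 0.87 for metastatic tumours (SD, n = 5) and 7.34 ± 0.47 for non-metastatic tumours (n = 8, limma adjusted p = 0.0160). Within group A it did not pass (1.44, adjusted p = 0.0961). RNF2, a ubiquitin ligase of Polycomb complex 1, rose by 0.93 ± 0.21 (SE, adjusted p = 0.0268) and by 1.04 within group A (adjusted p = 0.0262), with both group means under 7.16. It lost its call without MET1, MET5, NM3, NM4 or NM8, where adjusted p reached 0.0750, and its other probe set did not pass (1.15, adjusted p = 0.0601). RING1, a paralogue of RNF2, fell, with a difference of -0.63 ± 0.13 (SE, limma adjusted p = 0.0170). Within group A it differed by -0.56 (adjusted p = 0.0487), while its other probe set differed by -0.09 over all tumours. CBX7, a Polycomb reader of histone methylation, differed by 0.44 and did not pass (adjusted p = 0.0925). Within group A the list had 1 higher and 1 lower gene, against 0.578% and 2.20% of all probe sets.

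Of 16 measured genes of the retinoic acid pathway 0 rose and 2 fell at the probe set that stands for each, against 1.56% higher and 3.34% lower of all probe sets. Within group A 0 rose and 1 fell, against 0.578% and 2.20%. RXRG, a retinoid X receptor, read 7.43, 7.39, 7.76, 7.49 and 8.36 in metastatic tumours. The non-metastatic tumours ran from 7.57 in NM2 to 11.94 in NM3, with a median of 10.56. Apart from NM2, every non-metastatic tumour lay above every metastatic tumour. RXRG fell, with a difference of -2.45 ± 0.65 (SE, limma adjusted p = 0.0446) and of -2.90 within group A (adjusted p = 0.0195). Its other probe set fell as well, with differences of -2.99 and -3.45 (adjusted p = 0.0375 and 0.0183). Among fits that left out 1 tumour, RXRG passed without NM2, NM4 or NM7 and missed in the other 10 of 13, with differences from -2.82 to -2.20 and adjusted p up to 0.0976. RXRB, another such receptor, fell, with a difference of -0.40 ± 0.11 (SE, adjusted p = 0.0468). It lost its call within group A (-0.33, adjusted p = 0.113) and in 11 of 13 such fits, all but those without NM2 or NM7 (adjusted p up to 0.114). The second RXRB probe set fell over all tumours (-1.01, adjusted p = 0.0171) and within group A (-0.95, adjusted p = 0.0352).

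ALDH1A2, which makes retinoic acid in the embryo, lay between 4.62 and 5.26 in metastatic tumours and between 5.18 and 10.32 in non-metastatic tumours. Its difference of -2.23 ± 0.76 (SE) did not pass (limma adjusted p = 0.102), and RARG, a retinoic acid receptor, differed by -0.45 (adjusted p = 0.122). RARA, another receptor, differed by 0.16 at its probe set of highest mean (adjusted p = 0.561). Another of its 3 probe sets fell over all tumours (-0.68, adjusted p = 0.0313) and did not pass within group A (-0.68, adjusted p = 0.0746).

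**Figure D5:**
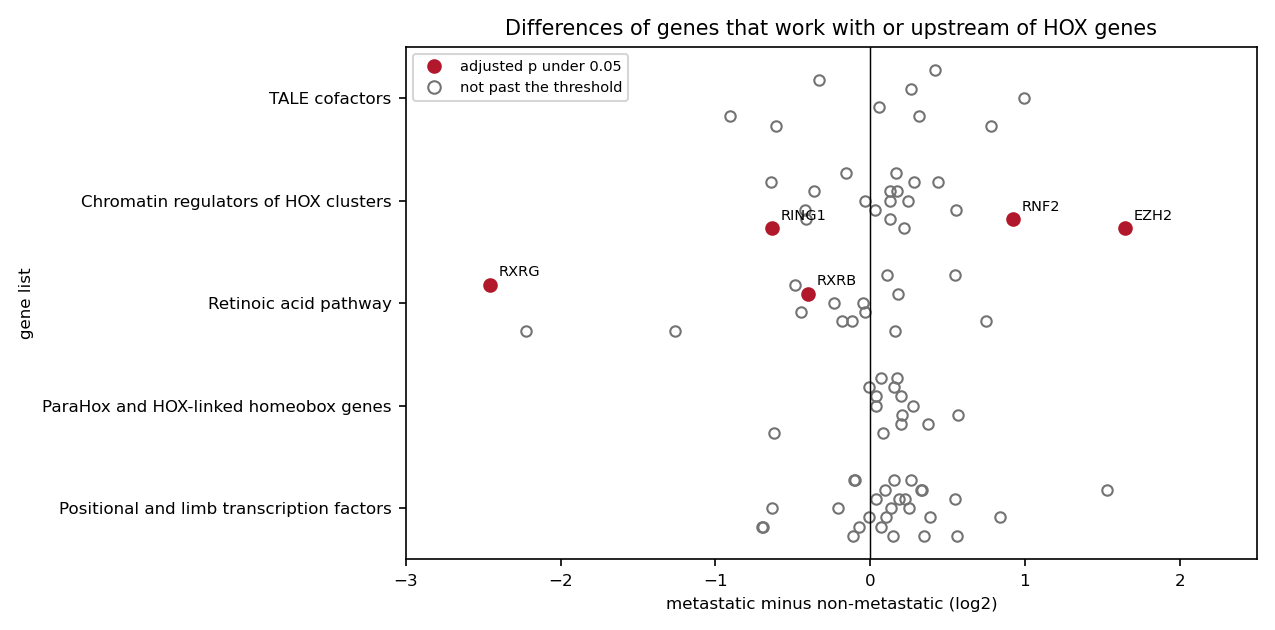
Log2 difference between metastatic and non-metastatic tumours, positive where higher in metastatic, of every measured gene of 5 lists of HOX partners and regulators, with 1 point a gene at its probe set of highest mean. Filled points passed limma's adjusted threshold of 0.05 over all tumours, and the vertical place within a list only separates the points. The filled points are EZH2 and RNF2 on the higher side and RING1, RXRB and RXRG on the lower side.

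Other homeobox genes and positional factors gave no calls at the probe set that stands for each gene. Of 14 ParaHox and HOX-linked homeobox genes, which include CDX genes that induce HOX genes in the embryo, 0 passed, against 4.90% of all probe sets, with DLX1 at 0.28, CDX1 at -0.62, CDX2 at 0.38 and MEOX1 at 0.20 (limma adjusted p from 0.177 to 0.336). Within group A CDX1 differed by -0.074 and CDX2 by 0.005. Over all tumours the other probe sets of DLX1 and MEOX1 differed by 0.12 and 0.07, and that of CDX2 by -0.24. Of 28 positional and limb transcription factors 0 passed, against the same 4.90%, with HAND2 at 0.39, DLX5 at 1.53, TBX4 at 0.56 and SALL4 at 0.33 (adjusted p from 0.0977 to 0.233). The other probe sets of HAND2 and TBX4 differed by 0.74 and -0.09. CDX1, CDX2, TBX4 and SALL4 read at most 6.66 in any tumour, inside the no-target range. PRRX1, a homeobox factor of limb mesenchyme, differed by -0.11 at its probe set of highest mean (adjusted p = 0.632). Another of its 3 probe sets fell over all tumours (-0.91, adjusted p = 0.0494) and did not pass within group A (-0.63, adjusted p = 0.217). DLX5, a homeobox factor of bone and limb, read 7.69, 4.70, 6.43, 5.67 and 8.48 in MET1 to MET5, and 4.19 to 6.19 in non-metastatic tumours. It passed without MET2 (2.005, adjusted p = 0.0441), and HAND2, a factor of the limb bud and heart, passed without NM2 (0.42, adjusted p = 0.0456). PITX1, a hindlimb factor chosen after its values were seen, was above 7.16 in MET1 (7.56), MET4 (7.53) and NM5 (8.58) and at most 6.76 in the other tumours. MET2 and MET5, the tumours of high HOXA5, read 5.59 and 5.88.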

How the data were processed

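Total RNA was labelled with an Affymetrix 1-cycle 3′ in vitro transcription kit, per the labels' protocols. The authors deposited 1 table of values for 13 arrays, read here as log2 intensities because they run from 0 to 14.33, while how they were background-corrected and normalized is not given in the sources used here. Values were used as deposited, and no detection calls were used. Gene names came from the platform annotation (29264 probe sets with 1 symbol, 439 with several, 13332 with none), and 0 symbols changed through RefSeq identifiers.

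All 42924 probe sets other than 111 Affymetrix controls were fitted with limma 3.58.1 in R 4.3.3 (lmFit and eBayes, two-sided, no covariates). P-values were adjusted over all of them by Benjamini-Hochberg, with a threshold of 0.05. The fit was tested on simulated data. Differences are metastatic minus non-metastatic. SE and 95% intervals come from the fit, and SD from the samples. The exact permutation test was two-sided on the difference of means. Cluster medians and centred means have no test. Python 3.11.15, numpy 2.4.6, pandas 2.3.3 and matplotlib 3.10.9 were used.

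Spike-in groups were set from the control probe sets, with a mean at the 3′ end under 6 as no signal and a 3′ minus 5′ value over 2 as unequal ends. The genes, lists and tests were chosen with earlier results of these data known. By rule, values in every tumour were given for HOX genes with a passing probe set and for the gene of largest difference in each cluster, and the 4 genes of smallest p were named from each list of partners and regulators. Values of single tumours for HOXA9, HOXA13 and HOXB6 were added after they were seen. The number of arrays limits the precision. Replicate numbers of the labels did not pair the samples, with correlations of deviations between -0.01 and 0.08 over 5 pairs.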

Additional observations from a re-analysis of the deposited data

Results flagged for a closer look

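In 6 of 60 groups of HOX values 1 tumour stood far from the others of its group by Dixon's test. The nominal rate of the test is about 1 in 20, and the share flagged over all probe sets was not computed. Whether 6 is more than usual for this array is thus not known. NM2 held 3 of the 6, with both HOXD10 probe sets counted apart, and 21.6% of all probe sets were highest in NM2. HOXD10 read 7.80 in NM2 at its brighter probe set, with 6.21 as the next non-metastatic value, and 7.02 at its other probe set, with 6.19 as the next. HOXC13 read 5.85 in NM2, with 5.32 as the next. NM2 was also the only tumour with unequal ends of the spike-in controls. HOXA13 read 6.81 in NM4, with 5.78 as the next non-metastatic value. HOXC10 read 6.15 in NM1, with 5.63 as the next. The second HOXB7 probe set read 7.28 in MET5, with 6.76 as the next metastatic value. Of these values only that of HOXD10 at its brighter probe set and that of HOXB7 were above the no-target range, which ends at 7.16.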

How the results depend on the processing

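The count of 0 HOX probe sets in each direction was the same under quantile normalization, without dim probe sets (which leaves 7 of the 21 genes), with a trend and robust variance model, within spike-in group A, with the spike-in group as a block and with the 3′ to 5′ difference of ACTB as a covariate. The exact permutation test also gave 0, but after adjustment it called 0.00% of all probe sets. Its count for HOX genes therefore could not differ from 0. Leaving out single tumours gave 0 to 4 higher probe sets, 0 to 4 genes and 0 lower ones, and within group A, an alternative chosen after seeing the data, 0 and 0. Differences over these fits ran from 0.85 to 1.91 for HOXA5, 0.76 to 1.31 for HOXB7, 0.02 to 0.71 for HOXC8 and 0.43 to 0.86 for HOXD10, and cluster medians from 0.30 to 0.43 (HOXA), 0.10 to 0.13 (HOXB), -0.06 to 0.06 (HOXC) and 0.43 to 0.86 (HOXD). Signs of uncalled genes turned within group A and with its block for HOXA13 (0.13), HOXB1 (0.0575) and HOXC13 (0.0815), under quantile normalization for HOXB9 (-0.0499) and HOXC10 (-0.0714), with the covariate for HOXC4 (0.00742), and in fits without 1 tumour for HOXB2 (-0.17 to 0.03), HOXB9 (-0.00114 to 0.0874), HOXC4 (-0.0963 to 0.0813) and HOXC10 (-0.0274 to 0.110). With the replicate block, a pairing that the labels do not state, 0 HOX probe sets passed, 733 probe sets passed in place of 2104, and the differences were 1.30 for HOXA5, 1.12 for HOXB7, 0.12 for HOXB2 and -0.012 for HOXC10. RNF2, RING1, RXRB and RXRG lost their calls with it, RXRB and RXRG with the ACTB covariate, and RXRB also under quantile normalization (adjusted p = 0.0838) and with the trend and robust variance model (0.0544). Chromatin regulators had 1 higher gene, and retinoic acid genes 1 lower gene, both within group A and with its block. At 1 log2 unit above the no-target range the highest paralogue number among the genes analysed was 9 in HOXA in all 13 tumours. In HOXB it was 7 in MET5, 2 in 1 non-metastatic tumour and none in the others. No HOXC or HOXD probe set reached that level. The cause of these changes was not tested. Signals inside the no-target range limit what low HOX genes can show.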
